A study of Mus musculus with 2 samples.

Results

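The 10 genes described here encode P2 receptors, the cell surface proteins that sense nucleotides outside the cell. They were listed by gene symbol, with earlier results of these data known: P2rx1, P2rx4 and P2rx7 of the P2X channels, and P2ry1, P2ry2, P2ry6, P2ry10, P2ry12, P2ry13 and P2ry14 of the P2Y receptors. They are 10 of the 15 P2X and P2Y genes, and of 19935 genes in all, that had a probe set assigned to a single gene. Each had 1 such probe set, so no choice among probe sets was needed. The cells were primary dendritic cells (DCs), the antigen-presenting cells of the immune system, obtained by flow cytometry from spleens of C57BL/6 mice, wild type and 8 weeks old. They were cultured with IL-27, a cytokine of the IL-12 family, in 1 sample and with vehicle in the other, for a time the labels give as "ON". Total RNA of each sample was read on 1 array, so no difference below has a replicate check and no test was possible. The number of mice or cultures behind each sample is not in the labels.

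ATP and its breakdown products leave stressed, activated or dying cells and act on nearby immune cells. P2X receptors are ion channels that ATP opens directly, whereas P2Y receptors are coupled to G proteins and respond to ATP, ADP, UTP, UDP or nucleotide sugars, depending on the receptor. In myeloid cells these receptors are known for steering chemotaxis toward damaged cells and for triggering release of IL-1 family cytokines.

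The values are linear intensities per probe set, as deposited, and differences are log2 of IL-27 minus log2 of vehicle. A gene was called lower or higher where the arrays differed by at least 2-fold and the brighter of them reached an intensity of 96.2, the median over all probe sets and both arrays (the level minimum); this is called the size rule. The 95th percentile of 1027 olfactory receptor genes, which are not expected in DCs, was 129 on the IL-27 array and 77.3 on the vehicle array. It is called the olfactory limit, and a value at or below it (within the olfactory range) is not distinguished here from background. The difference varied with level over all genes. A lowess fit of that trend ran from 0.23 among dim genes to -0.53 among genes of intermediate level, so each member is also given relative to genes of like level. Intensities of different probe sets are not compared with each other as transcript levels. Class II chain genes and Itgax, among the markers of the labelled cell type, were present on both arrays. Of 20 conventional DC markers 7 were lower with IL-27, as given below. The class II chain genes H2-Aa, H2-Ab1 and H2-Eb1 had intensities of 7697, 8222 and 6966 on the IL-27 array, against 7080, 8357 and 7371 on the vehicle array, and the DC integrin gene Itgax 1829, against 3371.

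Of the 10 receptors, P2ry13, P2ry12, P2rx7 and P2ry6 were lower on the IL-27 array and none was higher. Of all 19935 genes 7.36% were lower by the same rule and 0.848% were higher. Of the 7 receptors over the level minimum the same 4 were lower, against 13.2% of the 11140 genes at that level. P2rx4 and P2ry14 had differences of -0.83 and -0.92, short of the rule, and P2ry10 had 0.30. P2rx1, P2ry1 and P2ry2 were below the level minimum on both arrays. The median difference of the 10 was -0.87, against 0.04 over all genes, and 6 of the 10 were below 0. Over the level minimum the median was -1.11 for the 7 receptors and -0.34 for all genes. With the level trend removed it was -0.44 for the 10 and -0.003 for all genes. The 5 other P2X and P2Y genes, not among the 10, all had positive differences, with a median of 0.35, or 0.14 with the level trend removed. Only 1 of these 5, P2rx5, was over the level minimum.

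Markers of macrophages and monocytes, cells that carry several of these receptors, were lower alongside. Of 21 measured, 15 were lower by the size rule, against 7.36% of all genes. The summed intensity of the 21 markers was 22027 on the IL-27 array and 48427 on the vehicle array. Their median difference was -1.54, and all except Ccr2 exceeded the olfactory limit on at least 1 array. Of 2 scavenger receptors of tissue macrophages, Mrc1 differed by -2.12 and Cd163 was at least 3.59-fold lower. The IL-27 value of Cd163, 88.1, lay within the olfactory range. In such bulk RNA, fewer cells of a type and less RNA per cell cannot be told apart, and the part of these markers in the receptor differences was not tested. Conventional DC markers had a median difference of -0.82, with 7 of 20 lower and summed intensities of 34433 and 45173 on the IL-27 and vehicle arrays. The 7 were Clec4a4, Cd8a, Xcr1, Cd4, Sirpa, Dpp4 and Flt3. Clec4a4, within the olfactory range with IL-27, was at least 2.29-fold lower. The others exceeded the olfactory limit on both arrays and differed by between -1.53 (Cd8a) and -1.08 (Flt3). With the level trend removed 5 of the 20 were lower.

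**Figure D1:**
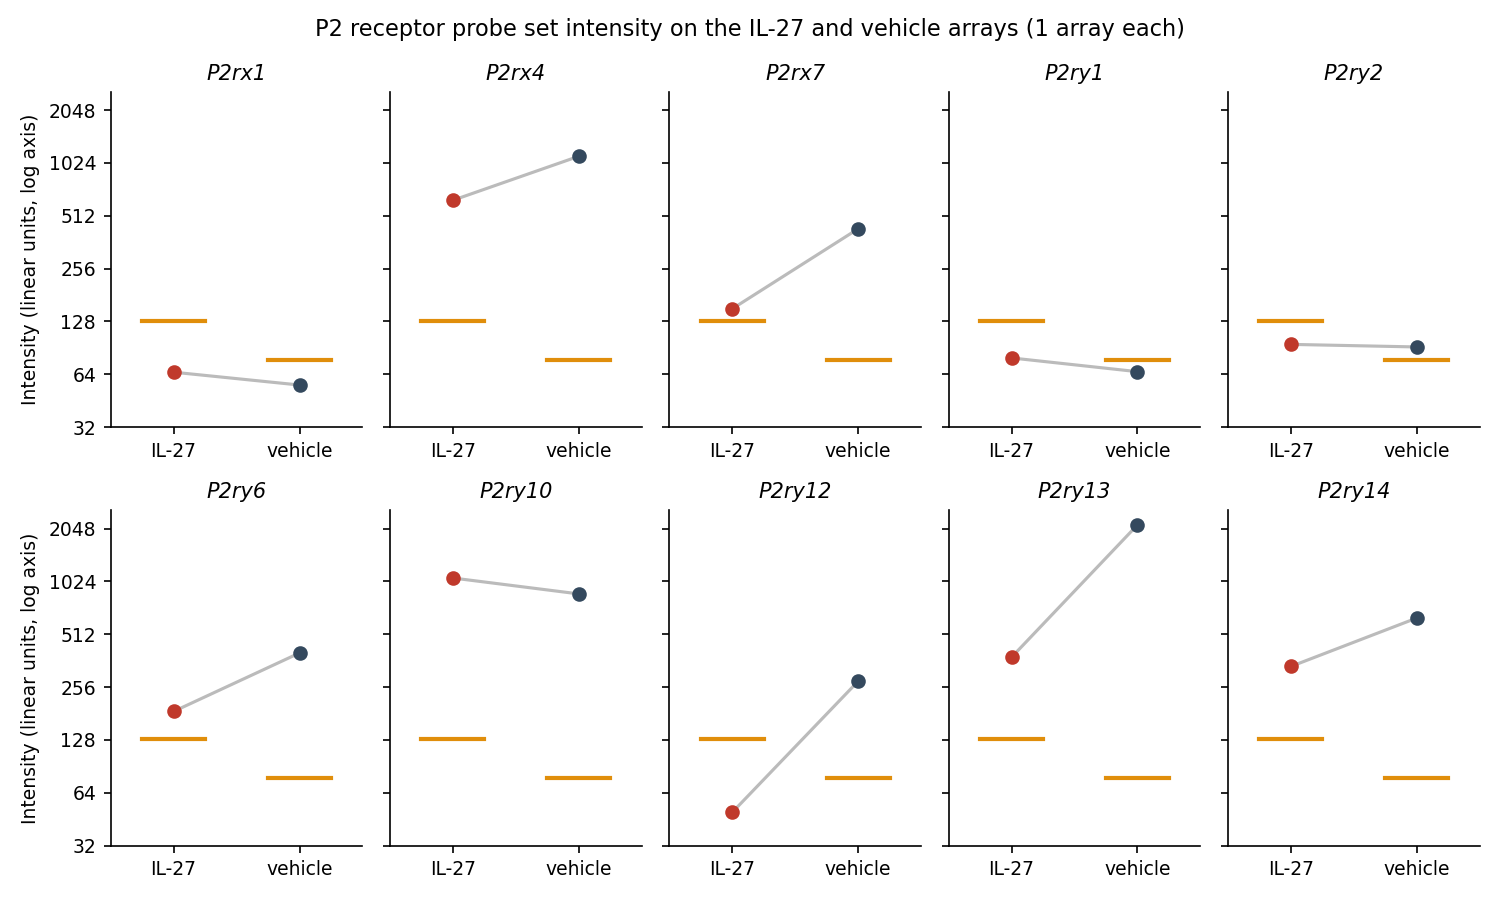
Intensity of the 10 receptor probe sets on the IL-27 array (red, left) and the vehicle array (dark blue, right), 1 array each, on a log axis; orange bars mark the olfactory limit of each array. P2ry13 had 379 with IL-27, against 2150 with vehicle, and P2ry12 lay below the olfactory limit with IL-27 but not with vehicle.

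The ADP receptors P2ry13 and P2ry12 showed the largest differences of the 10. P2ry13 (probe set 10498367) encodes an ADP receptor coupled to inhibitory G proteins. Its intensity was 379 with IL-27 and 2150 with vehicle, which is 5.67-fold lower, a log2 difference of -2.50. Both values exceeded the olfactory limit, so the size of this difference was not set by the bottom of the scale. Among the 1000 genes nearest in mean level, 0.3% had an absolute difference at least as large, and their median was -0.34. With the level trend removed, P2ry13 differed by -2.14.

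P2ry12 (probe set 10498371) encodes the ADP receptor that platelets use for aggregation and microglia for moving their processes toward injury. Its intensity was 49.6 with IL-27, below the olfactory limit, and 277 with vehicle, above that array's limit. Measured against the limit on the IL-27 array it was at least 2.14-fold lower, and the deposited values differed by -2.48. None of its 1000 level neighbours had a difference that large (0 of 1000), and their median was -0.05. Of 9 measured platelet and megakaryocyte markers, 3 (Gp9, Treml1 and Itgb3) exceeded the olfactory limit on both arrays, 7 did on at least 1, and 2 lay within the olfactory range on both, among them the platelet chemokine gene Pf4, at 42.4 with IL-27 and 43.5 with vehicle. The 9 had a median difference of 0.05 (-0.05 after median centring), with 1 lower (Clec1b, at least 4.07-fold), against 7.36% of all genes. Their summed intensities were 944 and 1269 on the IL-27 and vehicle arrays, and the part of platelets in the P2ry12 difference was not tested.

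P2ry14 (probe set 10498350), the receptor for UDP-glucose and related nucleotide sugars, had 336 with IL-27 and 634 with vehicle, a difference of -0.92 that is 1.89-fold lower and short of the rule. Of its 1000 level neighbours, 24.0% had an absolute difference as large. Its difference was -0.43 once the level trend was removed.

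These 3 receptor genes lie close together on chromosome 3, and all are inside the span of Med12l, on its opposite strand. Of the 3 genes read around them 1, Gpr171, was over the level minimum, and it did not share the size of the P2ry12 and P2ry13 differences. Gpr171, a related receptor that also lies inside Med12l, had 287 with IL-27 and 407 with vehicle (-0.50, and 0.03 with the level trend removed). Med12l itself, a subunit gene of the Mediator complex, had 72.6 with IL-27 and 67.6 with vehicle, both within the olfactory range. Igsf10, next beyond P2ry12, had 79.5 with IL-27, within the olfactory range, and 81.6 with vehicle. Med12l and Igsf10 were below the level minimum on both arrays, so neither could be called lower.

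Promoter sequence is shown for the 3 genes with the largest differences that have one, and for P2ry10 as a member that was not lower, so that the regions upstream can be read beside the values. P2ry10 had 2 windows, and only the second, which holds the core marked below, is shown. The windows are RefSeq's, build GRCm38.p6, from 250 bases before to 50 after an annotated start, 5′ to 3′ on the gene's strand, and 9 of the 10 members had 15 such windows. Capitals mark GAGGAA or its complement TTCCTC, a core bound by PU.1, a transcription factor of myeloid cells. The P2ry13 window is chr3:59210833-59211132 (minus strand), and that of P2ry12 chr3:59262936-59263235 (minus strand). Those of P2rx7 are chr5:122643677-122643976 and chr5:122650133-122650432 (plus strand), and the second of P2ry10 is chrX:107089083-107089382 (plus strand).
P2ry13: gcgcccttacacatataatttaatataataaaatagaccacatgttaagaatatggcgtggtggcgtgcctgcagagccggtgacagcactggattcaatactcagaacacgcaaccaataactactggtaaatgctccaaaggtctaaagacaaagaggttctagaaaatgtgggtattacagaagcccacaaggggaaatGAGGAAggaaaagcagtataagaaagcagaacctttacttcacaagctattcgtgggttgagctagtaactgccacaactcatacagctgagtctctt
P2ry12: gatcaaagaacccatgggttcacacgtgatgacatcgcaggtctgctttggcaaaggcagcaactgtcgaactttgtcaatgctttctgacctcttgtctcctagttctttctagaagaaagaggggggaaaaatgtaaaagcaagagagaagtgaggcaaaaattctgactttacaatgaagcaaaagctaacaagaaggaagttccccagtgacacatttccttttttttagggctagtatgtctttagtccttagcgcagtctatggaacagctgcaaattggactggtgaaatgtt
P2rx7 start 1: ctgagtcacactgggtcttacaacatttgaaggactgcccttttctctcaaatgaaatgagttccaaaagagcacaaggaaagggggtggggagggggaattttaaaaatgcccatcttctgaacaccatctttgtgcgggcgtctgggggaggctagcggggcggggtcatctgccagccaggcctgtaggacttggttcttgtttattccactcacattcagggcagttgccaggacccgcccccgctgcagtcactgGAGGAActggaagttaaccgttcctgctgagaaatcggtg
P2rx7 start 2: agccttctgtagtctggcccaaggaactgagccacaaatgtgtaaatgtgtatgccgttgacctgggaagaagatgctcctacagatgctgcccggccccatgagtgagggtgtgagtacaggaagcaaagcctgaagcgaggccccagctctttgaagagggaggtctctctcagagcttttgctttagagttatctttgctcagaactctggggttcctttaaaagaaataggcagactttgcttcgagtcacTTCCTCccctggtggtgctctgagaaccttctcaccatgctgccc
P2ry10 start 2: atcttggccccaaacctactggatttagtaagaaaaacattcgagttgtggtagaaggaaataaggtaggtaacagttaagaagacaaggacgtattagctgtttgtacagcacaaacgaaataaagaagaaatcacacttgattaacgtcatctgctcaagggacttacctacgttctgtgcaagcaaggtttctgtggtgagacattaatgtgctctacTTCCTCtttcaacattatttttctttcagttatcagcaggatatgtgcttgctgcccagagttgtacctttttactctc
GAGGAA was found on either strand in 8 of the 15 member windows, in P2rx7, P2ry10, P2ry13 and P2ry14, and in 28.3% of all 32851 windows. The 8 are windows and not genes. P2ry14 had 4 windows, P2rx7 and P2ry10 had 2 each and P2ry13 had 1, so this count cannot be read as a share of the members. In P2ry13 it began 48 bases before the start. P2ry12 did not hold GAGGAA, and shorter forms of this core were not searched. P2ry13 and P2ry12, with nearly equal deposited differences, thus differed in this exact sequence. P2ry10, which was not lower, held it in the window shown, the second of its 2. The longer GAGGAAGT, which contains the first, was in 2 member windows (P2rx7 start 2 and P2ry10 start 2) and in 3.2% of all windows. TTCNNNGAA, a STAT dimer motif, was in 0 of the 15, against 8.3% of all windows, and AANNGAAA, the core bound by interferon regulatory factors, in 4 of the 15 (P2rx7, P2ry10 and P2ry12), against 23.9% (both strands, each motif). These matches describe letters in a short window.

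**Figure D2:**
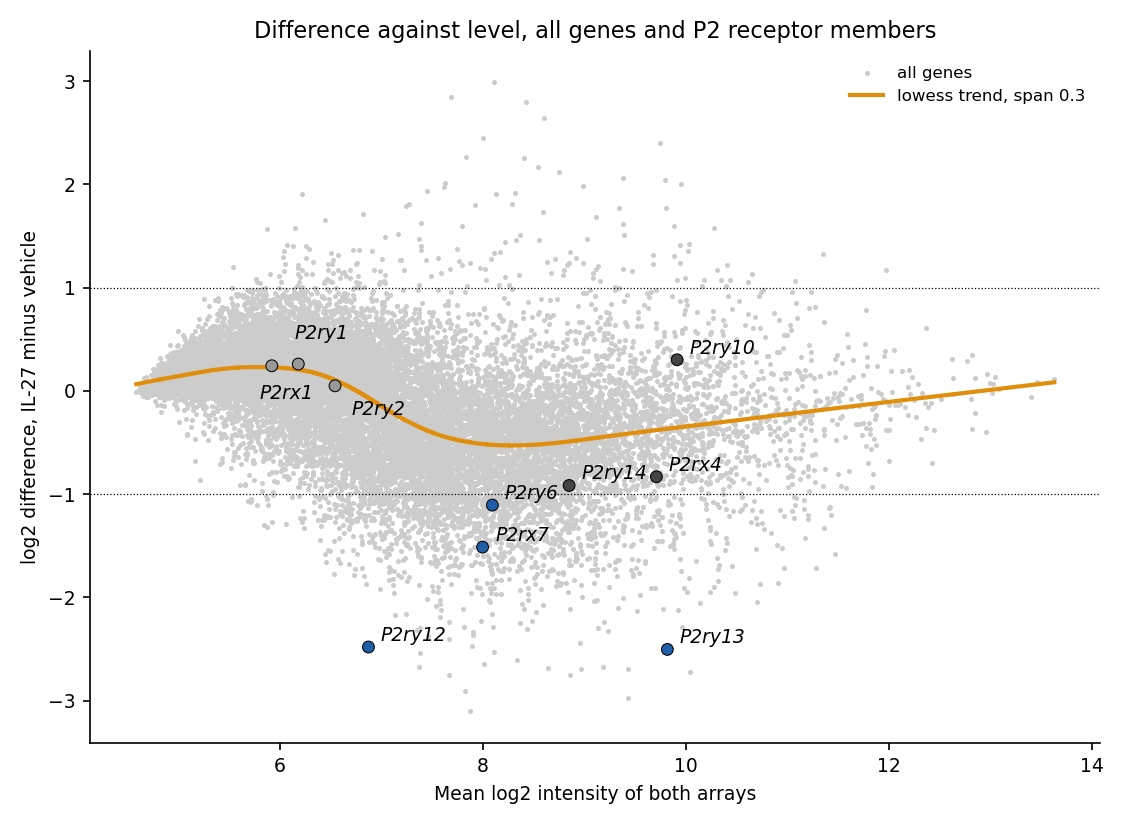
Log2 difference (IL-27 minus vehicle) against mean log2 intensity for all 19935 genes (grey), with the lowess trend in orange and the 10 receptors as large points (blue, lower by the size rule; dark grey, neither; light grey, below the level minimum). P2ry12 and P2ry13 lie at the lower edge of the cloud at their levels, and P2ry10 lies above the trend.

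Among the ATP-gated channels, P2rx7 was lower and P2rx4 had a smaller difference in the same direction. P2rx7 (probe set 10525419) encodes the channel that opens at high ATP, lets potassium out and thereby activates the NLRP3 inflammasome. Its intensity was 151 with IL-27 and 432 with vehicle, which is 2.86-fold lower (-1.51). Among its 1000 level neighbours 5.3% had a difference that large, and their median was -0.56. With the level trend removed the difference was -0.9994, just short of the rule.

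P2rx4 (probe set 10525439), a channel that responds to lower ATP and is held largely in lysosomes, had 628 with IL-27 and 1117 with vehicle (-0.83, 1.78-fold lower), and 21.9% of its level neighbours differed by as much. P2rx4 and P2rx7 are adjacent on chromosome 5, and their differences with the trend removed were -0.45 and -0.9994. Genes next to the pair gave no common direction. Anapc5, of the anaphase-promoting complex, had 315 with IL-27 and 581 with vehicle (-0.88) by the brightest of its 5 probe sets, whereas the mean over them differed by 0.43. Kdm2b, a histone demethylase, had 440 with IL-27 and 319 with vehicle (0.46). Camkk2, a calcium-dependent kinase gene, differed by -0.13 (0.08 with the trend removed), and Ift81, of cilia, had 40.9 and 38.2 on the IL-27 and vehicle arrays, within the olfactory range.

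P2rx1 (probe set 10378240), the channel of platelets and smooth muscle, had 65.8 with IL-27 and 55.6 with vehicle. Both values lay within the olfactory range, so no level of this gene was detectable here. Of the P2X genes outside the 10, P2rx5, known from lymphocytes and muscle, exceeded both limits and had 160 with IL-27 and 138 with vehicle, a difference of 0.22. P2rx2, P2rx3 and P2rx6, best known from neurons and epithelia, had 69.2, 68.1 and 89.5 with IL-27 and 53.7, 56.97 and 68.8 with vehicle, within the olfactory range throughout.

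Among the P2Y receptors coupled mainly to Gq, P2ry6 was lower and P2ry1 and P2ry2 were near the limit of detection. P2ry6 (probe set 10565958), the UDP receptor that promotes phagocytosis in microglia, had 186 with IL-27 and 401 with vehicle, which is 2.15-fold lower (-1.11). This difference was not far from that of genes of like level, whose median was -0.55, and 17.2% of them differed by as much. It was -0.58 with the level trend removed and -0.78 after quantile normalization, short of the rule under both. P2ry6 and P2ry2 are neighbours on chromosome 7, but P2ry2 was below the level minimum on both arrays and could not be called lower.

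P2ry2 (probe set 10565962), a receptor for ATP and UTP that guides phagocytes to dying cells, had 94.8 with IL-27, within the olfactory range, and 91.6 with vehicle. Its difference was 0.05 as deposited and -0.06 with the level trend removed, so it has no direction. P2ry1 (probe set 10492330), an ADP receptor of platelets, had 79.3 with IL-27 and 66.3 with vehicle, both within the olfactory range. P2ry4, the remaining P2Y gene outside the 10, a UTP receptor of epithelia, had 64.1 and 50.4 on the IL-27 and vehicle arrays, also within it. The differences of P2rx1 and P2ry1, 0.24 and 0.26, were close to the medians of 0.24 and 0.23 in their 1000 level neighbours.

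P2ry10 was the member over the level minimum with a positive difference. P2ry10 (probe set 10601416), a lymphoid and myeloid receptor that belongs to the P2Y family by sequence and responds to lysophosphatidylserine, had 1071 with IL-27 and 869 with vehicle (0.30, 1.23-fold higher). Its 1000 level neighbours had a median of -0.34, and 88.8% of them lay at or below it. With the level trend removed the difference was 0.66. Its neighbour and close paralog on the X chromosome, P2ry10b, went the other way and had 94.95 with IL-27, below the olfactory limit, and 233 with vehicle. It was at least 1.80-fold lower, and the deposited difference was -1.30. Probe sets of such paralogs can cross-hybridise, so each value is uncertain individually. Gpr174, the next receptor gene on that chromosome, had 43.0 and 38.8 on the IL-27 and vehicle arrays, within the olfactory range.

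**Figure D3:**
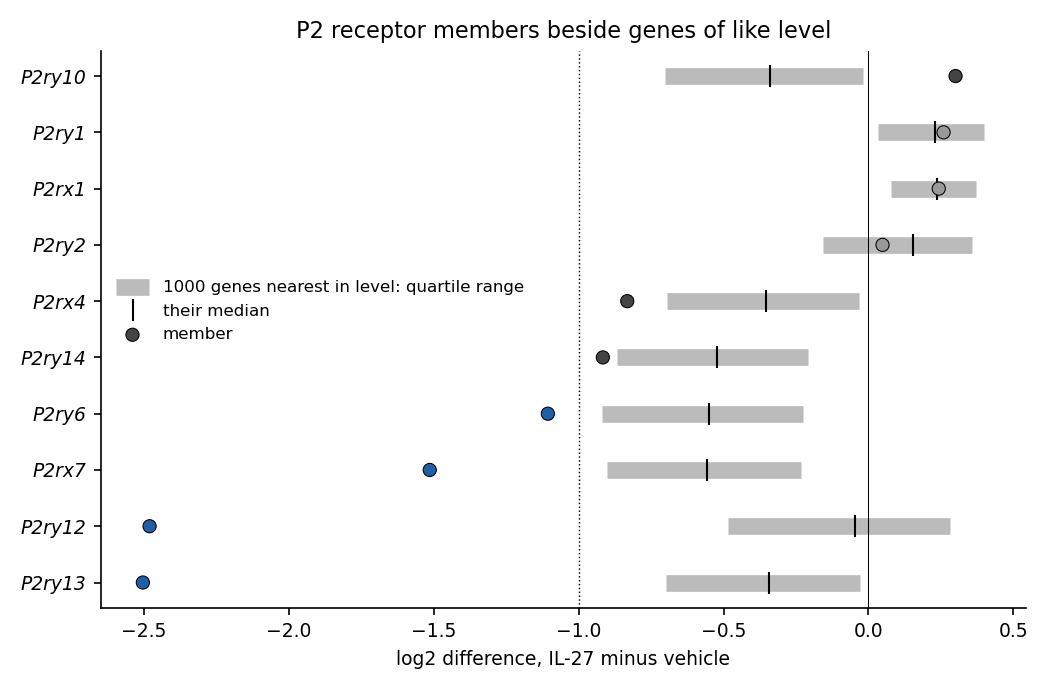
Log2 difference of each receptor (points; blue, lower by the size rule; dark grey, neither; light grey, below the level minimum) beside the quartile range (grey bars) and median (ticks) of the 1000 genes nearest in mean intensity; the dotted line marks -1. P2rx1, P2ry1 and P2ry2 lie within the bars, P2ry10 lies above its bar, and the other 6 lie below theirs.

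The calls of P2rx7, P2ry6 and P2ry14 depended on the scale chosen. P2ry12 and P2ry13 were lower under each alternative that could move their values (5 for P2ry12 and 4 for P2ry13), with differences from -2.58 to -1.10 for P2ry12 and from -2.60 to -2.14 for P2ry13. The P2ry12 call ended where both arrays had to reach the level minimum, since its IL-27 value of 49.6 lies below it, and P2ry13, P2rx7 and P2ry6 were then the 3 members lower. P2rx7 was lower under 3 of the 4 alternatives that could move it and P2ry6 under 2 of 4. The share of all genes lower was 4.54% after quantile normalization, 9.37% after median centring, 6.11% with an offset of 16 and 5.67% with the dimmer array raised to the olfactory limit. P2ry14 passed the rule after median centring alone, at -1.01. With the level trend removed, the 2 receptors still lower were P2ry12 and P2ry13, and 3.01% of all genes were. Genes called higher made up 10.3% of all called genes as deposited (169 higher, 1468 lower), 20.6% after quantile normalization (235 higher, 906 lower) and 36.0% with the trend removed (338 higher, 601 lower).

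**Figure D4:**
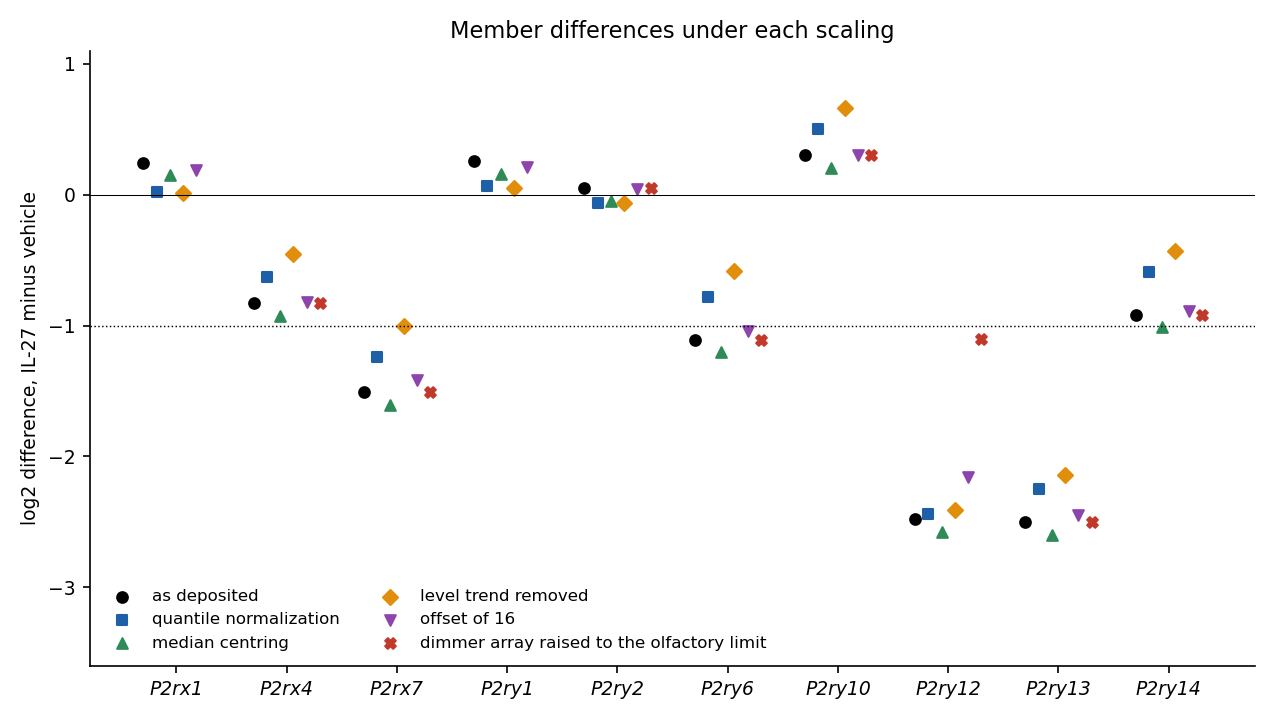
Log2 difference (IL-27 minus vehicle) of the 10 receptors as deposited and under each rescaling, with the dotted line at -1; P2rx1 and P2ry1 have no value against the olfactory limit because both of their values lay within the olfactory range. The P2ry13 values stay between -2.60 and -2.14, and the P2ry12 value against the limit, -1.10, is the smallest for that gene.

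Genes downstream of P2X7 were lower in part. All 12 listed genes of the P2X7-linked inflammasome were over the level minimum. Of these 4 were lower and none higher, against 13.2% lower among all genes at that level. With the trend removed 3 were lower, against 3.01% of all genes. The median difference of the 12 was -0.91, or -0.55 with the trend removed. Pla2g4a, the phospholipase that releases arachidonic acid, was at least 4.22-fold lower (116 with IL-27 and 547 with vehicle). Il18, a cytokine matured by the inflammasome, had 133 with IL-27 and 547 with vehicle (-2.04), and Casp1, the protease that matures it, was at least 2.58-fold lower. Nek7, which binds NLRP3, differed by -1.36. Il1b, the main IL-1 cytokine, had 2044 with IL-27 and 3445 with vehicle (-0.75), and Il1a 504 with IL-27 and 976 with vehicle (-0.95), both short of the rule, and the potassium channel gene Kcnk6 differed by -0.15 (0.19 with the trend removed).

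Of 28 measured G protein subunits and effectors, the machinery of P2Y signalling, 26 were over the level minimum. Of these 8 were lower and none higher, against 13.2% lower among all genes at that level. The median of the 28 was -0.59. With the trend removed the median was -0.18 and 5 were lower, against 3.01% of all genes. The largest differences were those of Rgs18 and Rgs2, which switch off G protein signals. Rgs18, a regulator abundant in platelets and myeloid cells, was at least 3.09-fold lower (77.1 with IL-27 and 400 with vehicle). Rgs2, which acts mainly on Gq, had 1007 with IL-27 and 3661 with vehicle (-1.86). Pik3cg, the phosphoinositide kinase activated by G protein βγ subunits, differed by -1.63 and Arrb1, β-arrestin 1, by -1.61. The brightest genes of the list that were not called were Gnb1, Rgs1 and Gna13, at 0.13, -0.43 and 0.71.

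The listed genes of nucleotide breakdown and release, not all of which act outside the cell, showed mixed differences. Of 14 measured nucleotide breakdown enzymes 3 were lower and none higher, with a median of -0.25. Of all genes 7.36% were lower, and of those over the level minimum 13.2%. Entpd6 and Entpd4, nucleoside diphosphatases, differed by -1.38 and -1.19, and Ada, which inactivates adenosine, was at least 1.66-fold lower. Entpd1, the surface enzyme CD39, differed by -0.99 and Entpd7 by -0.15 (0.35 with the trend removed). Adk, adenosine kinase, was within the olfactory range with IL-27 and at least 1.11-fold lower (-0.79 as deposited). None of the 14 was lower with the trend removed (0 of 14), against 3.01% of all genes.

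Of 13 measured nucleotide release proteins 3 were lower and none higher, with a median of -0.25. Over the level minimum, where 11 of the 13 lay, 13.2% of all genes were lower. With the trend removed 1 was lower (Calhm2) and 1 higher (Lrrc8d, at 1.24), against 3.01% and 1.7% of all genes. Calhm2 and Calhm6, of the CALHM channel family, were at least 2.70-fold and at least 1.58-fold lower. Ano6, a phospholipid scramblase, had 444 with IL-27 and 1130 with vehicle (-1.35). The volume-regulated channel subunits Lrrc8c and Lrrc8d differed by -0.46 and 0.73, and the pyrophosphate transporter gene Ank by 0.06. The adenosine receptors Adora1, Adora2a, Adora2b and Adora3 were not analysed here.

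**Figure D5:**
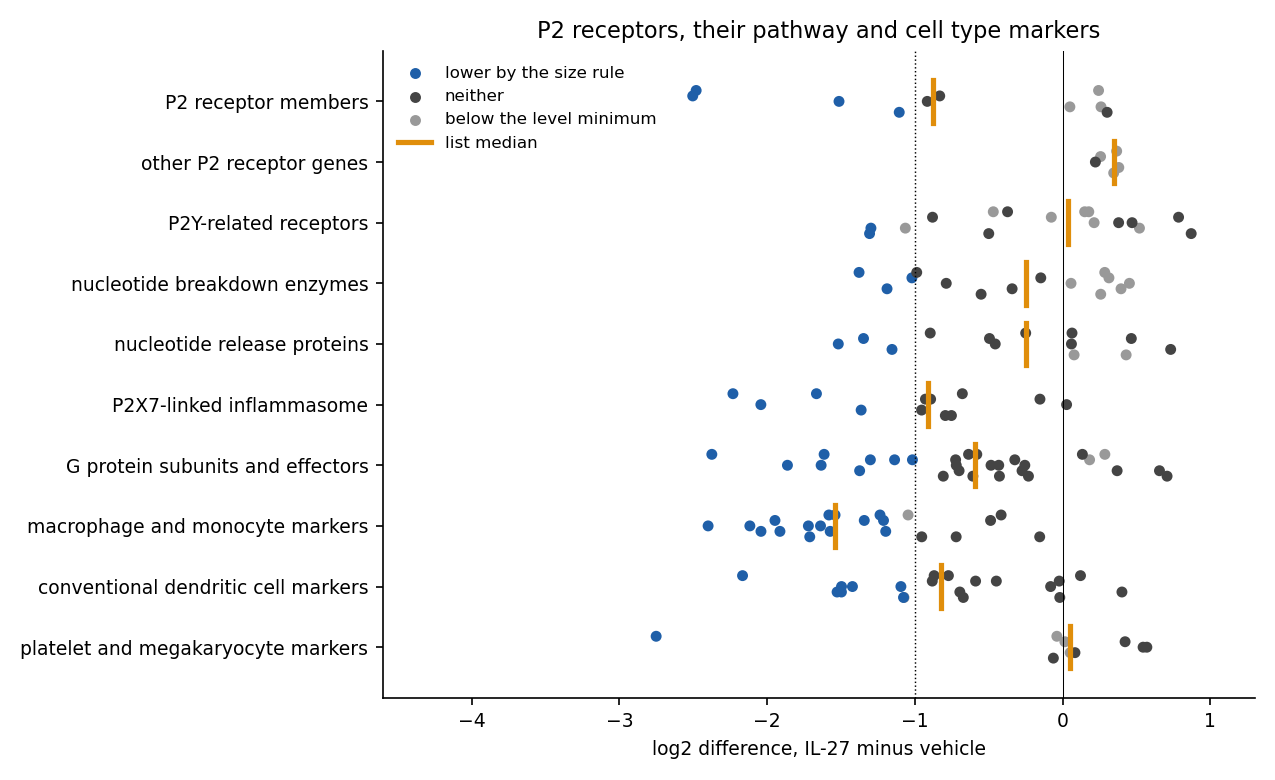
Log2 difference (IL-27 minus vehicle) of the measured genes of each list, as points (blue, lower by the size rule; dark grey, neither; light grey, below the level minimum), with the list median as an orange bar. The medians are -0.87 for the 10 receptors, -0.91 for the inflammasome list, -1.54 for macrophage and monocyte markers and 0.05 for platelet and megakaryocyte markers.

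Markers of the other cells that could be in the sort were read beside the receptors. Of all genes 7.36% were lower, of those over the level minimum 13.2%, and with the trend removed 3.01% of all genes. Plasmacytoid DC markers had a median of -0.47 (0.03 with the trend removed), with 0 of 8 lower and summed intensities of 1655 with IL-27 and 2158 with vehicle. B cell markers had a median of -0.61, with 2 of 8 lower (Cd22 and Ms4a1; 1 with the trend removed) and sums of 1347 with IL-27 and 2288 with vehicle. For T cell markers the median was 0.14 (0 of 8 lower, sums of 720 with IL-27 and 655 with vehicle). Of the 8 T cell markers, Cd5 exceeded the olfactory limit on both arrays, Cd3e and Lat exceeded it on the vehicle array, and the other 5 lay within the olfactory range on both. NK cell markers had a median of 0.19 (-0.02 with the trend removed), with 2 of 9 lower (Klrk1 and Klrd1; 0 with the trend removed) and sums of 900.2 and 1244 on the IL-27 and vehicle arrays. Neutrophil markers had a median of 0.28, with 3 of 12 lower (Csf3r, Mmp9 and Cxcr2) and sums of 853 and 1040 on the IL-27 and vehicle arrays. With the trend removed their median was 0.07 and 3 were lower. For eosinophil and mast cell markers the median was 0.15 (-0.02 with the trend removed), with sums of 1518 and 2680 on the IL-27 and vehicle arrays. Ccr3 was the 1 of 11 lower, also with the trend removed. Within the olfactory range on both arrays lay 5 of the 9 NK cell, 7 of the 12 neutrophil and 8 of the 11 eosinophil and mast cell markers. Their medians therefore rest largely on values near background. With the dimmer array raised to the olfactory limit, 1 of the 12 neutrophil markers stayed lower (Csf3r, at least 2.12-fold). The part of these other cells in the receptor differences was not tested.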

How the data were processed

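RNA of splenic DCs cultured with IL-27 or with vehicle was hybridised to 1 array each. The authors deposited 1 linear intensity per probe set and array, for 28815 probe sets. Per the labels' protocols, material was labelled with an Affymetrix WT Terminal Labeling Kit, and mm8 is the build in the submitters' processing notes. How the intensities were background-corrected, summarized and normalized is not stated by the labels or the file. No value was 0 or below, and log2 was taken without a pseudocount. The array medians were 98.9 (IL-27) and 92.4 (vehicle).

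GEO's platform annotation named the probe sets: 21780 had 1 gene, 1605 several, and 5430 are unnamed here. All 10 member symbols matched RefSeq (GRCm38.p6). A gene with several probe sets was represented by the brightest. The members, lists and rules were chosen with earlier results of these data known. Named genes were all members, and of each list up to 4 called genes with the largest difference and up to 3 uncalled ones that were brightest. For markers fewer were named, apart from the 7 conventional DC markers called lower. Itgax, Pf4, Cd3e, Lat, Ccr2, Clec10a and Gpr174 were added after their values were seen. The alternatives tried were removal of the lowess trend (span 0.3), quantile normalization, median centring, an offset of 16, the mean of probe sets, the olfactory limit, other level minimums, a 1.5-fold rule and other summaries. Calculations used Python 3.11.15, numpy 2.4.6, pandas 2.3.3 and statsmodels 0.14.6, and were tested on simulated data. The number of arrays limits the precision.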

Additional observations from a re-analysis of the deposited data

How the results depend on the processing

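The count of receptors lower by the size rule was 4 as deposited, 2 with the level trend removed, and between 3 and 6 under the other alternatives (6 with a 1.5-fold rule). The median difference of the 10 receptors, -0.87 as deposited, was -0.44 with the level trend removed, -0.61 after quantile normalization, -0.97 after median centring, -0.85 with an offset of 16, -1.01 with the dimmer array raised to the olfactory limit, -0.85 as a mean, and -1.11 over members above the level minimum; each gene had 1 probe set, so averaging probe sets left it at -0.87. Of 58 values for single receptors under the alternatives, 17 could not differ from the deposited ones (1 probe set a gene, or the dimmer array above its limit). Of the other 41, 38 kept their sign, and the 3 that turned were all of P2ry2 (quantile normalization, median centring and trend removal). The numbers of genes lower and higher among all genes, 1468 and 169 as deposited, were 601 and 338 with the trend removed, 906 and 235 after quantile normalization, and 3753 and 653 with a 1.5-fold rule. With both arrays required over the level minimum, 3 receptors were lower (without P2ry12), and 1191 genes were lower and 97 higher. Fewer or more calls under another size rule follow from its construction; otherwise the cause was not tested. The trend is strongest at intermediate levels, where P2rx7, P2ry6 and P2ry14 lie. No paired analysis was possible because each group had 1 array. With 1 array a group, no setting shows how much these values vary between cultures.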

Other observations

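Other receptors related in sequence to the P2Y family differed in both directions. Of 16 measured, 2 were lower (Gpr65 and P2ry10b) and none higher as deposited, against 7.36% lower among all genes. The median difference of the 16 was 0.04, or -0.05 with the level trend removed. Gpr65, a proton sensor of immune cells, had 515 with IL-27 and 1275 with vehicle, a difference of -1.31, or -0.92 with the trend removed. The brightest receptors of this list that were not called had positive differences. Ptafr, the receptor for platelet-activating factor, had 1996 with IL-27 and 1092 with vehicle (0.87), Gpr132, a receptor of lymphocytes and macrophages, 1871 with IL-27 and 1439 with vehicle (0.38), and Gpr183, the oxysterol receptor that positions DCs in the spleen, 1292 with IL-27 and 933 with vehicle (0.47). With the trend removed, 2 receptors of the list passed the rule upward, against 1.7% of all genes. These were Ptafr at 1.15 and Lpar6, a lysophosphatidic acid receptor named after its value was seen, at 1.13.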
